A study of Mus musculus with 8 samples.

Results

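Vesicle trafficking and membrane fusion genes were taken by name: protein-coding genes whose mouse symbol starts with Rab, Stx, Vamp, Syt, Sec, Vps, Snx, Exoc or Trappc followed directly by a digit, and whose RefSeq span holds at least 1 measured m6A-eCLIP site. Of 230 protein-coding genes with such a name, 106 had a site and 124 had none among the sites analysed here. For 102 genes, 527 sites lay in the span of that gene and of no other protein-coding gene, out of 33774 sites and 6528 named genes in all. The other 4 (Rab6a, Trappc13, Trappc2l and Vamp3) had only sites that a second protein-coding gene also spans, and are given apart. The name rule used no measured value, and it leaves out genes of the same pathways with other names.

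The cells were αTC1-6, an established line of glucagon-making mouse alpha cells. They had received an siRNA against Mettl14 (M14KD, replicates 3 and 4) or a scramble siRNA (SCR, replicates 1 and 2), and each gave an immunoprecipitated library (IP) and an Input library, so that each of the 4 groups held 2 libraries. In m6A-eCLIP an antibody against N6-methyladenosine is fixed to RNA by ultraviolet light, and reads are counted at narrow sites. A knockdown leaves part of the Mettl14 message, all the cells come from 1 line, and the labels do not say whether the replicates were separate cultures, so the p-values measure the spread between these libraries, which may be technical.

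Vesicle trafficking moves proteins such as peptide hormones from the endoplasmic reticulum (ER) through the Golgi to granules and the plasma membrane, and back through endosomes to lysosomes. Coat proteins such as COPII form vesicles, Rab GTPases mark each membrane and recruit tethers, and SNARE proteins drive fusion, which synaptotagmins tie to calcium in secretory cells. Mettl14 holds RNA for the catalytic subunit Mettl3, and together they methylate messenger RNA, mostly at A within a GAC core. The mark is known to affect how long a message lasts and how well it is translated.

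The M14KD IP libraries held 10554570 and 10207383 counts summed over all sites, against 10918559 and 10573976 in the SCR IP libraries. The Input libraries were shallower, with 3438530 and 3614519 counts in M14KD and 3616603 and 3637740 in SCR. The trafficking genes held 1.25% and 1.25% of the counts of the M14KD IP libraries, against 1.23% and 1.28% in the SCR IP libraries, and 0.694% to 0.709% of every Input library. Mettl14 itself had 42 and 25 IP counts in M14KD against 78 and 81 in SCR, and 32 and 22 Input counts in M14KD against 64 and 44 in SCR. The groups did not overlap, but in edgeR's quasi-likelihood test neither the IP log2 fold change of -1.17 (SE 0.24, adjusted p = 0.157) nor that of Input (-0.95, SE 0.27, adjusted p = 0.241) passed the threshold. Sites were found in 10 alpha cell markers, Gcg among them, none of 8 markers of other islet cells had one, and of 9 markers of other tissues Sox9 alone did, at 5.77 or fewer counts per 1000000 summed site counts (CPM).

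In the IP libraries, none of the 102 trafficking genes passed the threshold in M14KD cells relative to SCR cells when counts were summed over the sites of a gene (edgeR quasi-likelihood test over all genes, Benjamini-Hochberg adjusted p under 0.05), and DESeq2 called none of the 54 members to which it gave an adjusted p. The background was 0.00% of 6378 genes. The lowest adjusted p of a member was 0.221. The median log2 fold change was 0.01 over the members and 0.01 over all genes, with a median SE of 0.12, and 11 members (10.8%) had an unadjusted p under 0.05 against 14.1% of all genes. Both M14KD libraries lay above both SCR libraries for 20 members, against 19.8% of all genes, and below them for 24, against 26.3%.

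**Figure D1:**
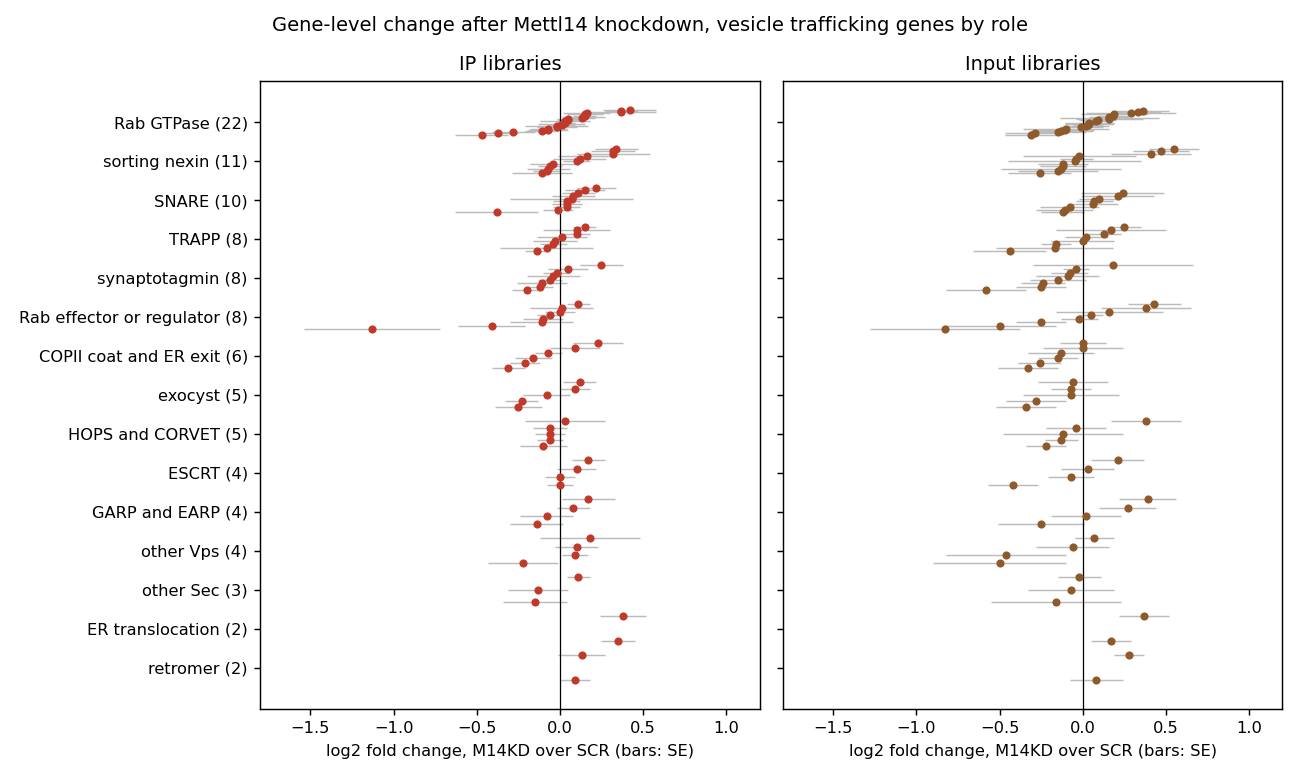
Log2 fold change of M14KD over SCR for each trafficking gene with a fitted value, in the IP libraries (left) and the Input libraries (right), by role with the number of genes in brackets. Points are genes, bars are standard errors, and no gene passed the threshold; in IP most lie within 0.5 of 0, and Rab11fip1 lies farthest, at -1.13.

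The endosomal Rab proteins had members on both sides. Rab9, which directs cargo from late endosomes to the trans-Golgi network, had 147 and 124 CPM in the M14KD IP libraries, against 112 and 101 CPM in the SCR IP libraries. The groups do not overlap, and the gene-level log2 fold change was 0.37 (SE 0.10, adjusted p = 0.221). Its Input level was also above, at 69.2 and 58.5 CPM in M14KD against 53.1 and 49.5 CPM in SCR. Rab7, which marks late endosomes and lysosomes, had 16.6 and 13.7 CPM in M14KD IP against 12.3 and 10.8 CPM in SCR IP, or 0.42 as a log2 fold change (SE 0.16, adjusted p = 0.305). Its Input libraries overlapped, with M14KD at 16.6 and 9.60 CPM and SCR at 13.5 and 14.8 CPM. Rab4a, which recycles cargo rapidly to the surface, lay on the other side, with 9.85 and 10.7 CPM in M14KD IP against 12.7 and 16.2 CPM in SCR IP (log2 fold change -0.47, SE 0.16, adjusted p = 0.292).

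At single sites, 1 of 520 tested trafficking sites passed the threshold in IP (0.192%), beside a background of 0.630% of 33348 sites, and 41 (7.88%) had an unadjusted p under 0.05, against 13.3% of all sites. It lay in Rab9, at position 166457938 of chromosome X in mm10, 687 bases before the end of the gene's span. Its IP counts were 446 and 404 in M14KD against 329 and 307 in SCR, which gave 0.49 as the log2 fold change (SE 0.10, adjusted p = 0.0315, edgeR). Both M14KD libraries were above both SCR libraries in IP, and its few Input counts (47 and 34 in M14KD, 33 and 28 in SCR) gave 0.47 (SE 0.26, adjusted p = 0.634), so the IP over Input change between genotypes was 0.02 (SE 0.27). The other 4 Rab9 sites had IP log2 fold changes of 0.13 to 0.46, and the closest to the threshold, at position 166458130, had an adjusted p of 0.0822. The call was lost with DESeq2 (adjusted p = 0.0734) and without replicate 2, 3 or 4 (adjusted p = 0.079, 0.467 and 0.0776), and it held without replicate 1 (adjusted p = 0.00726).

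Of the 7 sites shared with another protein-coding gene, 1 passed the threshold in IP. It lay in the spans of both Trappc2l, a subunit of the TRAPP complexes that tether vesicles at the Golgi, and Galns, a lysosomal sulfatase, at position 122611660 of chromosome 8. Its IP counts were 640 and 603 in M14KD against 506 and 490 in SCR, while its Input counts overlapped, at 178 and 175 in M14KD and 168 and 185 in SCR. The IP log2 fold change was 0.39 (SE 0.09, adjusted p = 0.0495, edgeR), and the adjusted p was 0.116 with DESeq2, 0.0646 with column totals, 0.0577 without a filter, and 0.124, 0.496 and 0.128 without replicates 2, 3 and 4. The neighbouring shared site at 122611650 had 532 and 484 IP counts in M14KD against 397 and 403 in SCR (adjusted p = 0.0513). Without strand, the reads of Trappc2l and Galns cannot be told apart. The single shared sites of Rab6a, Trappc13 and Vamp3 had IP log2 fold changes of 0.25, 0.21 and 0.39, with adjusted p of 0.608, 0.735 and 0.363.

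Of the members of protein entry into the ER, 2 were tested, and both lay above 0 in IP without passing the threshold. Sec61a1, Sec61a2, Sec61g and Sec63 had no site. Sec61b, a subunit of the channel that takes new proteins across the ER membrane, had 96.4 and 81.9 CPM in M14KD IP against 73.5 and 68.8 CPM in SCR IP (log2 fold change 0.35, SE 0.10, adjusted p = 0.225). Sec62, which works beside that channel, had 110 and 82.5 CPM in M14KD IP against 81.8 and 68.5 CPM in SCR IP (0.38, SE 0.14, adjusted p = 0.297). For Sec62 the higher SCR library nearly reached the lower M14KD library. The Input levels of Sec62 were 53.7 and 52.3 CPM in M14KD against 45.9 and 36.8 CPM in SCR, while those of Sec61b overlapped, at 110 and 95.1 CPM in M14KD and 85.7 and 97.0 CPM in SCR.

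The next step is the COPII coat, which buds vesicles from the ER at exit sites. Of the genes of this coat and of ER exit, 4 of 6 lay below 0 in IP, where the median over all genes was 0.01. Sec31a, of its outer cage, had 58.3 and 62.3 CPM in M14KD IP against 71.8 and 80.6 CPM in SCR IP (log2 fold change -0.31, SE 0.10, adjusted p = 0.245), and its Input was 77.2 and 85.2 CPM in M14KD against 88.2 and 107 CPM in SCR. Sec16a, the scaffold of ER exit sites, had 57.4 and 61.8 CPM in M14KD IP against 69.1 and 71.4 CPM in SCR IP (-0.21, SE 0.09, adjusted p = 0.343). The groups of both genes do not overlap, in IP or in Input. The cargo-binding subunits Sec24b and Sec24c had IP log2 fold changes of -0.07 and -0.16.

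Among sorting nexins, which bind endosomal lipids, the IP value of Snx13 depended on which library was left out. It had 249 and 205 CPM in M14KD IP and 209 and 159 CPM in SCR IP, so that SCR replicate 1 was level with M14KD replicate 4. Its IP log2 fold change was 0.32 (SE 0.13, adjusted p = 0.329, edgeR). It was 0.53 without replicate 1, 0.44 without replicate 4 and 0.13 without replicate 2. Without replicate 1, its 7 sites, which lie within 244 bases, had log2 fold changes of 0.46 to 0.82. In Input, Snx13 had 53.7 and 54.1 CPM in M14KD against 41.8 and 32.2 CPM in SCR, the lowest p of any member there (log2 fold change 0.55, SE 0.15, adjusted p = 0.241). Snx16, an early and recycling endosome protein, had 35.8 and 28.5 CPM in M14KD IP against 26.8 and 24.6 CPM in SCR IP (0.34, SE 0.13, adjusted p = 0.312).

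The IP values of other members also moved with the library left out. Without replicate 4, Rab9, Sec61b, Sec62 and Snx13 had gene-level IP log2 fold changes of 0.47, 0.44, 0.56 and 0.44 (edgeR). Without replicate 3 the values of Rab9, Sec61b, Sec62 and Snx16 were 0.25, 0.23, 0.16 and 0.18, and without replicate 2 that of Snx13 was 0.13. Each such fit leaves a group with 1 library, so only the log2 values are given for these genes.

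**Figure D2:**
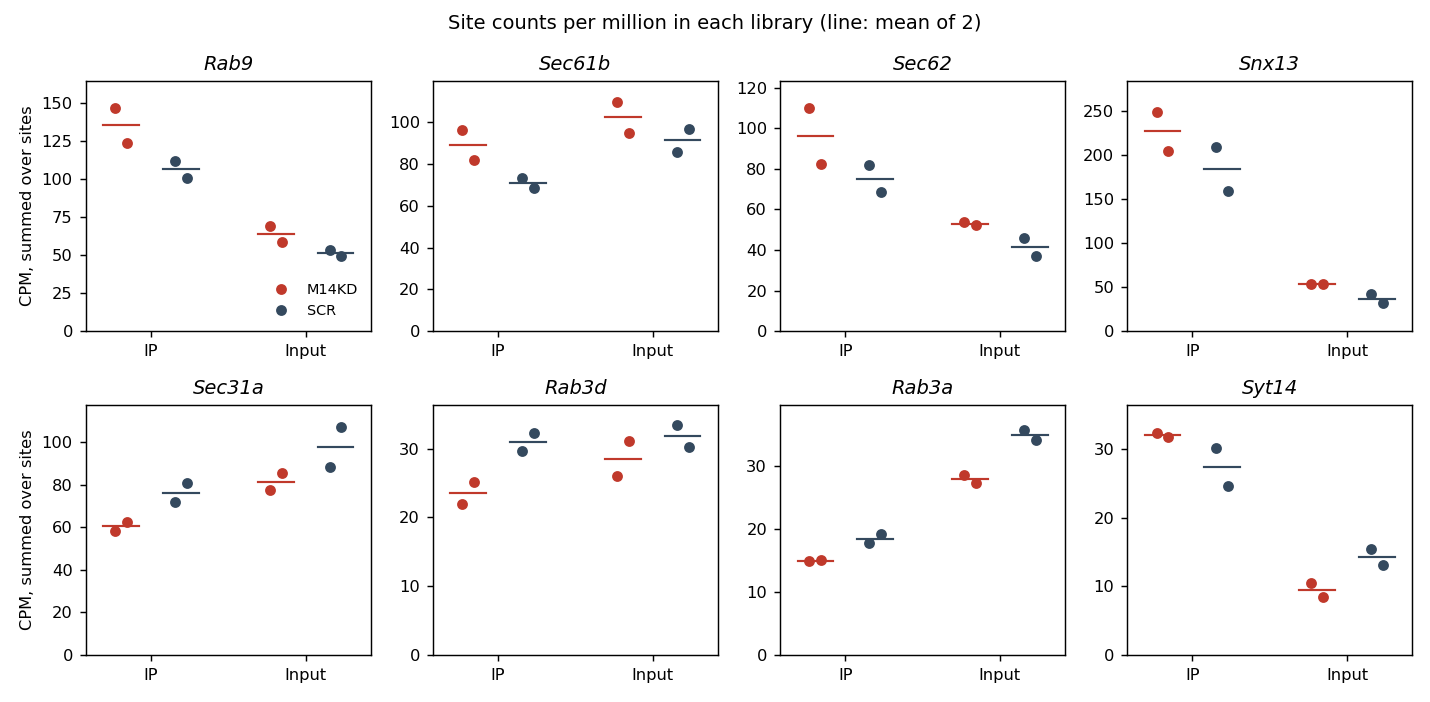
CPM summed over the sites of a gene (vertical axis from 0, its scale differing between panels) in each IP and Input library for 8 named genes; M14KD points stand left of SCR points and lines are means of 2 libraries. Rab9, Sec61b and Sec62 lie higher in M14KD IP and Sec31a, Rab3d and Rab3a lower, the Snx13 groups overlap in IP, and Syt14 lies higher in M14KD IP and lower in M14KD Input.

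Among the genes of regulated secretion are the granule Rabs. Rab3d, a Rab of secretory granules, had 22.0 and 25.2 CPM in M14KD IP against 29.6 and 32.2 CPM in SCR IP (log2 fold change -0.37, SE 0.12, adjusted p = 0.273). Rab3a, its relative on synaptic vesicles and hormone granules, had 14.9 and 15.0 CPM in M14KD IP against 17.7 and 19.1 CPM in SCR IP (-0.28, SE 0.13, adjusted p = 0.372). Rab3a also had less Input, 28.5 and 27.3 CPM in M14KD against 35.7 and 34.1 CPM in SCR (-0.31, SE 0.16, adjusted p = 0.536). Neither the IP nor the Input groups of Rab3a overlap, and its interaction, the change of IP over Input, was 0.03 (SE 0.20). Rab27a, which docks granules at the plasma membrane, had 51.3 and 55.7 CPM in M14KD IP and 61.6 and 55.6 CPM in SCR IP, groups that overlap (-0.11, SE 0.10).

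Of the synaptotagmin family, 8 genes had sites, with IP log2 fold changes of -0.20 (Syt2) to 0.25 (Syt14). Syt13 was among the most counted, with 587 and 613 CPM in M14KD IP against 619 and 655 CPM in SCR IP (-0.06, SE 0.07), and Syt11 had 291 and 299 CPM against 290 and 319 CPM (-0.02, SE 0.08). Syt7, a slow calcium sensor of granule release, had -0.11 (SE 0.15) and Syt4 0.05 (SE 0.12). The values of Syt11 and Syt4 changed sign when a replicate was left out. Stx4a, a plasma membrane SNARE, rested on 1 site with 1.23 and 1.18 CPM in M14KD IP and 1.01 and 1.32 CPM in SCR IP (0.07, SE 0.37), too few counts to show a difference. Stx1a, Vamp2, Vamp8 and Syt5 had no site here.

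The exocyst tethers vesicles to the plasma membrane, and 5 of its genes were tested. Exoc4 and Exoc8 had IP log2 fold changes of -0.25 (SE 0.14, adjusted p = 0.457) and -0.23 (SE 0.10, adjusted p = 0.355), each with both M14KD libraries below both SCR libraries. Exoc8 had 94.2 and 109 CPM in M14KD IP against 113 and 128 CPM in SCR IP. Exoc1, Exoc3 and Exoc6b had 0.12, 0.09 and -0.08. In Input all 5 lay below 0, from -0.34 (Exoc4) to -0.06 (Exoc1), with none past the threshold.

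Rab11fip1, an effector of Rab11 on recycling endosomes, had the lowest IP log2 fold change of the members, -1.13 (SE 0.41, adjusted p = 0.294), from very few counts: 0.663 and 0.882 CPM in M14KD against 1.37 and 2.08 CPM in SCR. The other Rab effectors and regulators ranged from -0.41 (Rab3gap1) to 0.11 (Rab5if). SNAREs other than Stx4a ranged from -0.38 (Stx17) to 0.22 (Stx11), and the TRAPP genes from -0.14 (Trappc9) to 0.15 (Trappc5). Most Trappc9 counts lay at sites shared with the noncoding gene Peg13, and its other sites gave -0.05. The ESCRT genes of membrane budding ranged from 0.00 to 0.17, and the HOPS and CORVET genes of lysosomal tethering from -0.10 (Vps11) to 0.03 (Vps41).

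In the Input libraries, which count RNA at the same sites before the antibody, none of 99 tested trafficking genes passed with edgeR, beside a background of 0.0172% of 5824 genes, and none of 486 tested sites passed, beside 0.0929% of 30147 sites. DESeq2 gave an adjusted p to only 13 of the genes and 17 of the sites, and called none of these. An unadjusted p under 0.05 was found for 11 genes (11.1%, against 10.4% of all genes) and 33 sites (6.79%, against 8.69%). The median log2 fold change of the genes was -0.04 against 0.01 over all genes, and 44.4% of members lay above 0 against 51.4% of all genes. Both M14KD libraries lay above both SCR libraries for 17 members (background 19.7%) and below for 30 (background 21.1%). In such bulk libraries, less RNA per cell and fewer cells with the RNA cannot be told apart.

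The members with the lowest p above 0 in Input included subunits of endosomal sorting. Vps29, of the retromer that returns receptors from endosomes, had 258 and 236 CPM in M14KD Input against 205 and 204 CPM in SCR Input (log2 fold change 0.28, SE 0.09, adjusted p = 0.321). Snx6, a sorting nexin that works with retromer, had 32.9 and 30.5 CPM in M14KD against 24.6 and 21.4 CPM in SCR (0.47, SE 0.17, adjusted p = 0.354). Both genes' groups are separate in Input, while in IP Snx6 overlapped and Vps29 had 86.5 and 80.3 CPM in M14KD against 80.1 and 79.4 CPM in SCR. Rab3ip, an exchange factor for Rab8, had 45.6 and 38.1 CPM in M14KD Input against 33.7 and 28.9 CPM in SCR Input (0.43, SE 0.16, adjusted p = 0.371), and Trappc5, a core TRAPP subunit, 208 and 234 CPM against 192 and 183 CPM (0.25, SE 0.10, adjusted p = 0.401).

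Below 0 in Input lay Vps37b, of the ESCRT-I complex, with 42.1 and 43.3 CPM in M14KD against 50.9 and 64.1 CPM in SCR (-0.42, SE 0.15, adjusted p = 0.349). Syt14, a synaptotagmin that lacks calcium binding, had 10.5 and 8.43 CPM in M14KD Input against 15.5 and 13.2 CPM in SCR Input (-0.58, SE 0.24, adjusted p = 0.418). Trappc12 had 10.2 and 10.8 CPM against 14.9 and 13.7 CPM (-0.44, SE 0.22, adjusted p = 0.536).

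The difference in IP over Input of M14KD relative to SCR sets the IP change against the Input change and was tested as an interaction in 1 model of all 8 libraries. None of 102 trafficking genes and none of 522 trafficking sites passed, with edgeR or DESeq2, beside backgrounds of 0.00% of 6376 genes and 0.00% of 33356 sites. An unadjusted p under 0.05 was found for 5 genes (4.90%, against 2.63%) and 23 sites (4.41%, against 3.72%). The median SE was 0.21 for a gene and 0.30 for a site. On simulated counts with the depth and spread of these libraries, 65.7% of 2-fold gene changes and 41.8% of 2-fold site changes were recovered. There only features above a floor of mean count were changed, many at once.

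Syt14 had the lowest p among members in the interaction, 0.83 (SE 0.27, unadjusted p = 0.00698, adjusted p = 0.999). It moved in opposite directions in the libraries: 32.4 and 31.8 CPM in M14KD IP against 30.2 and 24.7 CPM in SCR IP, with less in M14KD Input as given above. Vps37b had 0.42 (SE 0.17), with IP groups that overlap, at 108 and 101 CPM in M14KD and 105 and 107 CPM in SCR. Rab7 (0.51, SE 0.31), Trappc12 (0.40, SE 0.25) and Syt4 (0.29, SE 0.20) were also above 0. On the other side were Rab4a (-0.64, SE 0.26), Rab3ip (-0.44, SE 0.18), Rab21, a Rab of early endosomes (-0.44, SE 0.19), Vps11 (-0.49, SE 0.25) and Vps29 (-0.20, SE 0.13). All of these had an adjusted p of 0.999. Leaving out 1 replicate moved the value to -0.92 (without replicate 1) or -0.34 (without replicate 2) for Rab4a, to 0.29 (without replicate 4) or 0.83 (without replicate 3) for Rab7, to 0.24 (without replicate 2) for Vps37b and to 0.25 (without replicate 1) for Trappc12.

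IP over Input within each genotype shows which trafficking transcripts the antibody enriched relative to the average site, since TMM scaling sets the middle of all sites near 0. Of 102 genes, 36 were higher in IP than in Input and 39 lower in M14KD, and 35 were higher and 44 lower in SCR. The backgrounds were 35.5% higher and 35.6% lower in M14KD, and 35.2% higher and 34.7% lower in SCR. Of 522 sites, 198 were higher and 158 lower in M14KD (backgrounds 33.8% and 33.1%), and 206 higher and 150 lower in SCR (backgrounds 34.0% and 33.4%). Scaling by column totals instead moved the median log2 ratio of all genes to 0.73 in M14KD and 0.75 in SCR (0.02 and 0.04 with TMM). It gave 61 higher and 17 lower trafficking genes in M14KD and 58 higher and 16 lower in SCR. Of the calls over all genes, 78.2% in M14KD and 79% in SCR were higher with column totals (49.9% and 50.3% with TMM). The shift was thus not particular to trafficking genes. Directions near 0 therefore depend on the scaling. With column totals, 23 genes in M14KD and 25 in SCR moved to above 0 from below it, and 6 and 4 of these were called lower with TMM and higher with column totals: Rab35, Rab5if, Rab8a, Trappc3, Trappc5 and Vps4a in M14KD, and Rab35, Rab40c, Rab8a and Trappc3 in SCR.

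**Figure D3:**
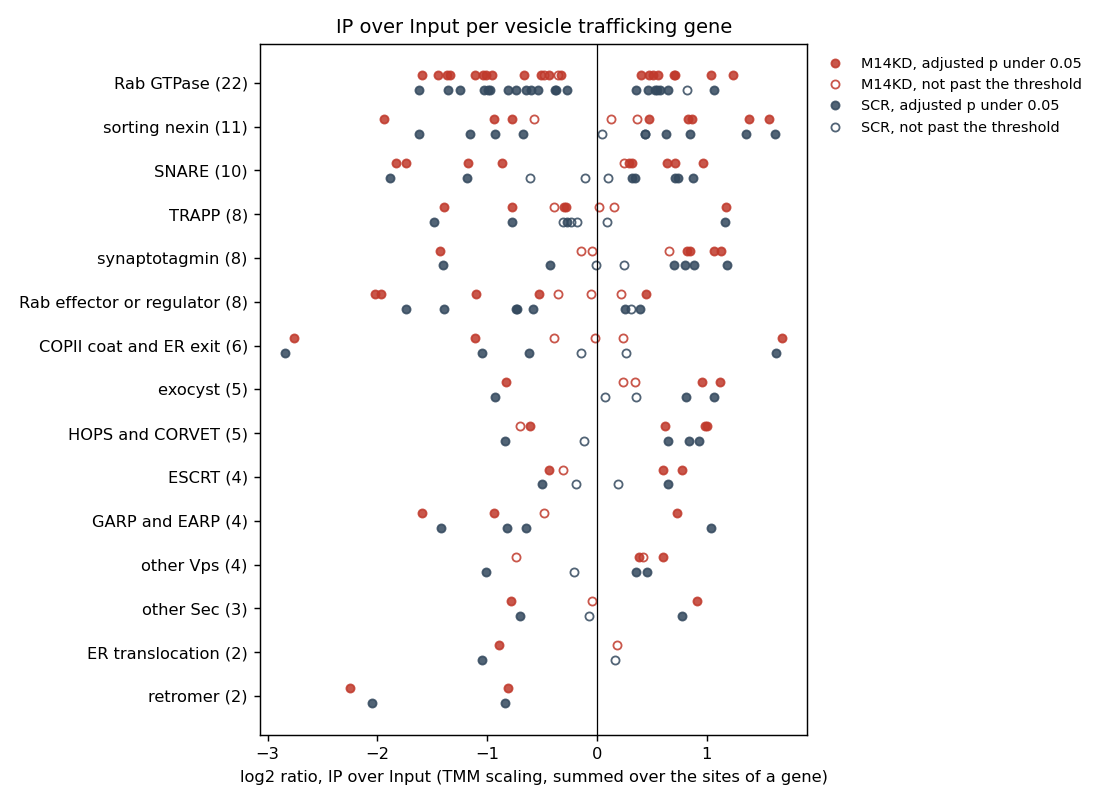
Log2 ratio of IP over Input for each trafficking gene (horizontal axis, TMM scaling) by role, with M14KD in red above SCR in dark blue. Filled points passed the threshold; genes of most roles lie on both sides of 0, both retromer genes lie below it, and Sec13 lies farthest left at -2.76 in M14KD and -2.84 in SCR.

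Most roles had members on both sides of 0. Among synaptotagmins 4 genes were higher and 1 lower in M14KD (median log2 ratio 0.74), and 4 higher and 2 lower in SCR (median 0.47). In the HOPS and CORVET complexes, 3 of 5 genes were higher and 1 lower in each genotype, with medians of 0.62 in M14KD and 0.65 in SCR. Vps18 and Vps33a, core subunits, were both higher, with Vps18 at 0.99 in M14KD and 0.84 in SCR and Vps33a at 0.93 in SCR. Both retromer genes were lower, Vps29 at -2.25 in M14KD and -2.05 in SCR, and Vps35 at -0.81 and -0.84, the last no longer called with column totals (-0.09 and -0.13). Of the 22 Rab GTPases, 8 were higher and 12 lower in M14KD, and 7 higher and 14 lower in SCR, with a median of -0.46 in each. That median was 0.25 in M14KD and 0.26 in SCR with column totals. The medians of the TRAPP genes, the COPII and ER exit genes, and the ER translocation, Rab effector and remaining Sec genes changed sign in the same way. Those of the GARP and EARP genes moved to 0.00 in M14KD and -0.03 in SCR.

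The 5 highest gene-level ratios in SCR were those of Sec24b (1.63, SE 0.09), Snx13 (1.62, SE 0.16), Snx30 (1.36, SE 0.12), Syt2 (1.19, SE 0.13) and Trappc9 (1.17, SE 0.08), with 1.69, 1.39, 1.57, 1.13 and 1.18 in M14KD. Most Trappc9 counts lay at sites shared with the noncoding gene Peg13. Its sites outside Peg13 had 0.67 in SCR and 0.47 in M14KD, below the other 4 genes named here. The 5 lowest in SCR were those of Sec13, a COPII cage protein (-2.84, SE 0.14), Vps29 (-2.05, SE 0.09), Stx7, a late endosomal SNARE (-1.89, SE 0.16), Rab11fip1 (-1.74, SE 0.37) and Snx6 (-1.62, SE 0.18), with -2.76, -2.25, -1.74, -2.02 and -1.94 in M14KD. All 10 kept their direction and their call with column totals. The 2 ends of the COPII coat were thus far apart: Sec24b had 380 and 402 CPM in M14KD IP beside 75.0 and 75.3 CPM in M14KD Input, and Sec13 had 12.5 and 11.6 CPM in M14KD IP beside 53.7 and 47.7 CPM in M14KD Input. Among granule Rabs, Rab3a was lower in IP (-1.59 in M14KD, -1.62 in SCR) and Rab27a higher (0.70 in M14KD, 0.53 in SCR), also with column totals.

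Sites of 1 gene differed widely. A trafficking gene had a median of 3 sites, 20 genes had 1 site, and 382 of the 527 sites (72.5%) had another within 100 bases. Since the window in which reads were counted is not given in the sources used here, neighbouring sites may share reads. In 34 of the 82 genes with at least 2 sites, some sites were called higher and others lower in IP over Input in SCR. In M14KD the number was also 34. Of all sites in SCR, 34.0% were called higher and 33.4% lower. The share of such mixed genes over all genes was not computed, so whether it is particular to trafficking genes was not tested. Snx30, a sorting nexin with a membrane-bending domain, had 13 sites in 940 bases with the highest ratios in the middle of the run. In SCR the values were -0.05 at 5793 bases before the end of the span, 2.84 at 5522 and -1.15 at 4853. In M14KD the same positions had -0.03, 2.35 and -1.10.

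Sec24b had 9 sites within 441 bases, 7 of them called higher and 1 lower in each genotype. A run of 4 neighbouring sites lay between 804 and 818 bases before the end of the span, at 2.06 to 2.37 in M14KD and 1.93 to 2.19 in SCR. Exoc8, of the exocyst, had its 5 sites called higher in SCR between 1108 and 1954 bases from the start, the highest at 2.98 in M14KD and 2.52 in SCR. Rab35, a Rab of recycling endosomes with 17 sites and the second largest number of the members, went the other way: 2 sites were higher and 12 lower in M14KD, and 2 higher and 7 lower in SCR, although at gene level its ratio of -0.33 in M14KD and -0.27 in SCR turned to 0.38 and 0.44 with column totals. Its IP level was nearly the same in all libraries, 622 and 606 CPM in M14KD and 611 and 610 CPM in SCR.

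Trappc9, a TRAPP II subunit, held the most sites, 39, and 31 of these also lay in the span of Peg13, an imprinted noncoding RNA inside the Trappc9 gene (chromosome 15, Peg13 from 72805602 to 72810324, Trappc9 from 72589620 to 73061238). The 31 shared sites carried 96.1% of the Trappc9 IP counts in M14KD and 96.3% in SCR, and without strand the 2 genes cannot be told apart. In IP the 31 sites had 978 and 989 CPM in M14KD against 1056 and 1154 CPM in SCR. Of their 31 IP log2 fold changes, 30 lay below 0 (median -0.14, beside 0.01 over all sites), with none past the threshold. The 31 sites lie between positions 72806732 and 72809849 and may share reads, so they are not 31 separate observations. The 8 sites outside Peg13 had 40.8 and 40.0 CPM in M14KD IP against 42.3 and 42.4 CPM in SCR IP (log2 fold change -0.05, SE 0.10, adjusted p = 0.856, edgeR). Their IP over Input ratio was 0.47 (SE 0.14, adjusted p = 0.00891) in M14KD and 0.67 (SE 0.15, adjusted p = 0.000673) in SCR, below the 1.18 and 1.17 of all 39 sites. Another 15 trafficking sites lay in noncoding genes too: 6 in Vps26c, 4 each in Rab11fip3 and Stx5a, and 1 in Rab11fip1.

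**Figure D4:**
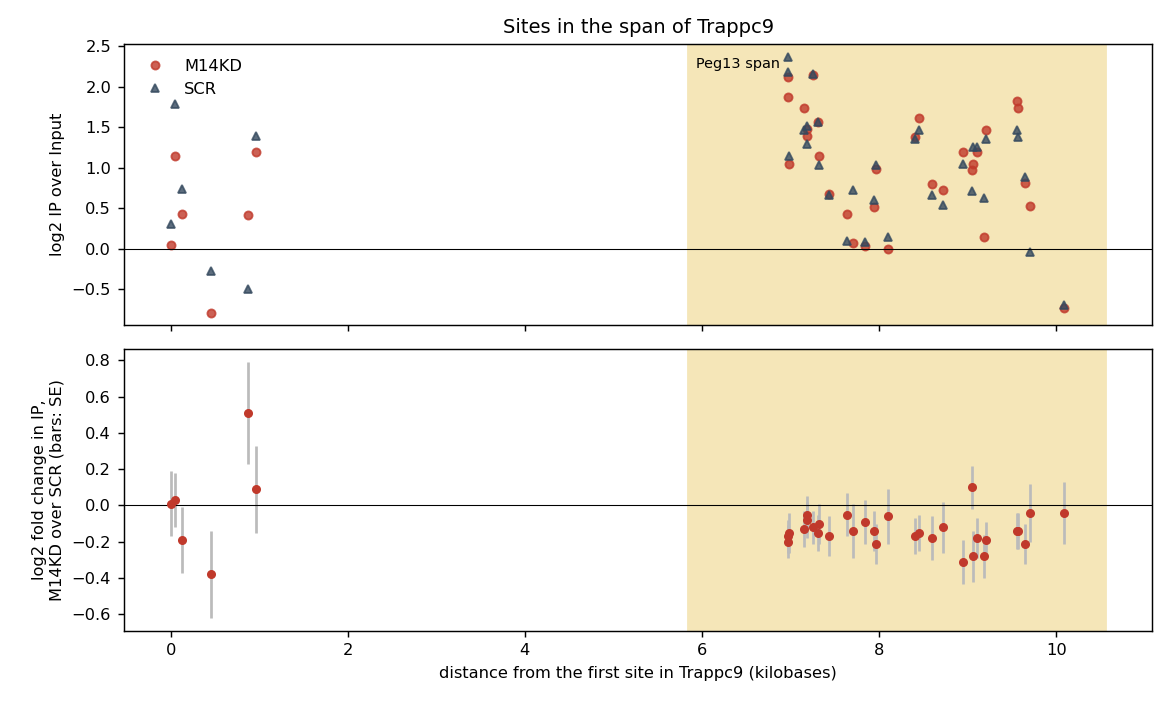
The 37 Trappc9 sites with a fitted ratio by distance from the first site in kilobases, with the Peg13 span shaded. Top, log2 ratio of IP over Input in M14KD (circles) and SCR (triangles), mostly above 0 inside Peg13. Bottom, IP log2 fold change of M14KD over SCR with standard errors, below 0 at 30 of the 31 sites inside Peg13. Those sites may share reads.

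Place along the gene could be given for 429 sites in 82 genes whose strand is in the RefSeq promoter table. The 16 sites in the first 300 bases of 10 genes all had less IP than Input relative to the average site, with medians of -0.81 in M14KD and -1.12 in SCR, and 11 were called lower in M14KD and 14 in SCR. Over all genes, 7.89% of the sites at this place were above 0 in M14KD and 7.30% in SCR, with medians of -1.11 and -1.15. Of the 836 such sites tested over all genes, 668 were called lower in M14KD and 687 in SCR. With column totals, 5 of the 16 sites in M14KD and 2 in SCR lay above 0, none called higher. Sites farther inside had medians of 0.59 in M14KD and 0.68 in SCR, beside 0.19 and 0.18 over all genes, and those in the last 500 bases had -0.45 and -0.41, beside -0.32 and -0.30. The difference from all genes was not tested. No exon annotation was used, so whether a site is coding or untranslated is unknown here.

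**Figure D5:**
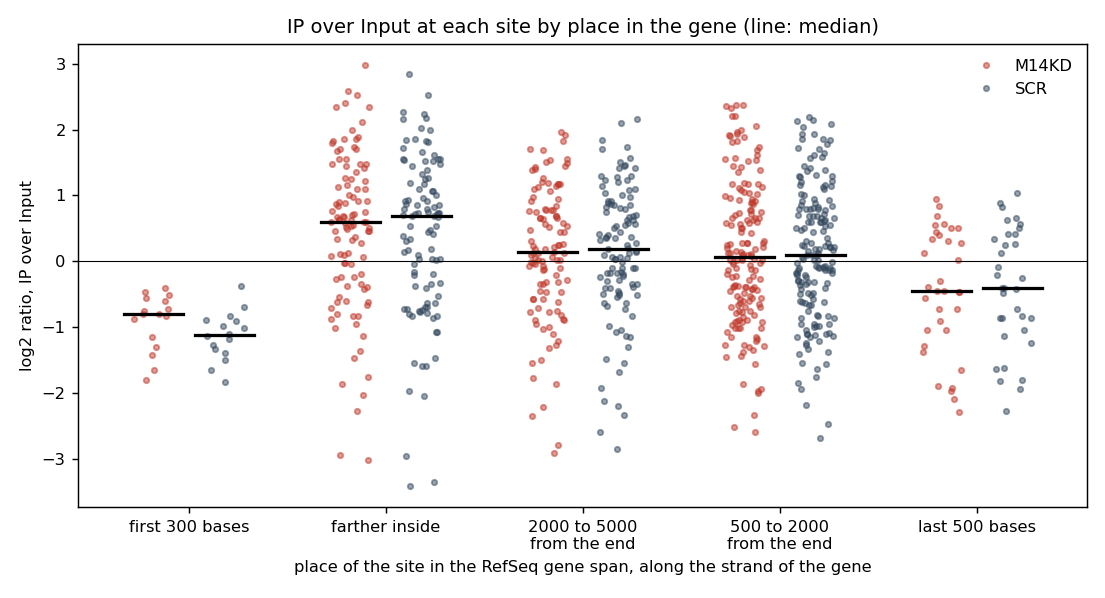
Log2 ratio of IP over Input at each of the trafficking sites with a known strand and a fitted ratio, by place in the RefSeq gene span, with M14KD left of SCR. Points are sites and lines are medians; all 16 sites in the first 300 bases lie below 0 in both genotypes, and the medians are highest farther inside, at 0.59 in M14KD and 0.68 in SCR.

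For 12 sites in 8 genes, all of them among those 16 except the Stx4a site, the surrounding bases are in the RefSeq promoter sequences (GRCm38.p6, the assembly of mm10). One window of 25 bases per gene is shown because these sites near the start all had less IP than Input relative to the average site, with TMM scaling. Each runs 5′ to 3′ on the gene's strand, and the capital letter marks the counted site.
Rab3a, chr8:70754698-70754722, plus strand: cccctggctttgCaggacgtcagct
Rab5if, chr2:156863125-156863149, plus strand: tccgtggagcttAgcgagccggccg
Rab7, chr6:88045245-88045269, minus strand: tctcgtgacagaCacttccgctcgg
Sec61b, chr4:47474661-47474685, plus strand: agagcctgtatcTacgagagttctg
Stx4a, chr7:127841752-127841776, plus strand: gccctcgcgcgcAtgctcggagtca
Stx7, chr10:24149342-24149366, plus strand: ctgcgccaggcagtGggcccccggg
Trappc6b, chr12:59061449-59061473, minus strand: cggaagtggctcAggctccacgccc
Vps52, chr17:33956031-33956055, plus strand: ttcgggaaacggActttctgagact

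These sites stand close to the annotated start of transcription, from 7 bases after it in Rab3a to 39 bases after it in Stx7, and in Stx4a and Vps52 they lie 44 and 47 bases before it. The letters GAC, searched on the gene's strand, were in 6 of the 12 windows, which overlap within Rab7, Rab5if and Vps52, and GGAC, which contains GAC, in 2. Over all 510 protein-coding sites with such a window, 33.3% held GAC and 13.1% GGAC, and 37.1% had A at the site, beside 6 of the 12 trafficking sites. IP over Input at the shown sites ran from -1.86 (Stx4a) to -0.51 (Rab7) in M14KD and from -1.66 (Rab3a) to -0.63 (Stx4a) in SCR. The Rab7 value in M14KD (adjusted p = 0.0713), the Vps52 value in M14KD (-0.56, adjusted p = 0.0905) and the Stx4a value in SCR (adjusted p = 0.382) did not pass the threshold. All sites of Rab7 and Sec61b, the genes above 0 in IP described earlier, lie within the first 79 bases of their spans. Of the 16 trafficking sites in the first 300 bases, 11 (68.8%) had an IP log2 fold change above 0 (median 0.10), beside 77% of such sites over all genes (median 0.14).

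The pair of Rab3a sites lay at the 2 ends of the gene, 7 bases from the start and 231 bases before the end. The start site had an IP log2 fold change of 0.02 and an Input one of -0.92, and the end site -0.41 in IP and -0.12 in Input, none past the threshold. The lower value was thus in Input at the start site and in IP at the end site, a difference that was not tested.

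Genes of the same steps with other names were taken from a list of 183, of which 95 had a site: Rab regulators, SNARE regulators and partners, coats and Arf proteins, and tethers and ESCRT subunits. None of 93 tested passed in IP (median log2 fold change -0.01), none of 87 in Input (median -0.06), and none of 93 in the interaction (median 0.00), all with edgeR. An unadjusted p under 0.05 was found for 7 of these in IP (14.1% of all genes), for 4 in Input (10.4% of all genes) and for 0 in the interaction (2.63% of all genes). In IP over Input with TMM scaling, 22 of 93 were higher and 33 lower in M14KD (backgrounds 35.5% and 35.6%), and 20 higher and 37 lower in SCR (backgrounds 35.2% and 34.7%). These directions were not computed with column totals.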

How the data were processed

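The deposited values are counts of reads at each site in 8 libraries, whole and not normalized, per the file headers and the column totals. The submitters' processing notes name STAR, cutadapt and UMI-tools, and the build mm10. The sources used here give no versions, site calling or counting window. Sites were named from RefSeq spans (GRCm38.p6), with strand from the RefSeq promoter table.

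Counts per site and summed per gene were tested over the whole table with edgeR 4.0.16 in R 4.3.3 (filterByExpr, TMM, quasi-likelihood F-test, Benjamini-Hochberg adjusted p under 0.05). SE is the size of a fitted log2 value divided by the root of its F. CPM are counts per 1000000 summed site counts of a library. Alternatives were DESeq2 1.42.0, DESeq2 size factors or column totals in edgeR, leaving out each replicate, the replicate number as a block, no filter, a stricter filter (mean count of 20), sites in a second gene left out, and a joint model of the 8 libraries.

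The members and lists were chosen with earlier results of these data known, and roles were assigned by name after the sites had been seen. Named genes were members with a called site, the 5 lowest unadjusted p on each side of 0 in IP, Input and the interaction, the 5 highest and 5 lowest called IP over Input ratios in SCR, the 5 with most sites, listed exocytosis and exocyst genes, and partners past the threshold. Others are named only as values within their role or as examples of sites.

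Deviations from the group means correlated between IP and Input libraries of 1 number (0.19 in M14KD and 0.29 in SCR over 6039 genes). With 2 libraries in a group the 2 deviations of a gene are equal and opposite, so the other pairing only reverses the sign. Whether the numbers pair the samples therefore cannot be decided from these values. Replicate pairs differed by 1.35 to 2.55 times the sampling noise (chi-square over degrees of freedom). Tested on simulated counts, 2-fold changes were recovered at 95.5% of genes and 97.0% of sites in IP, 73.1% and 52.2% in Input, and 65.7% and 41.8% in the interaction. Only features above a floor of mean count were changed, 67 of them 2-fold and others by other sizes. With many features changed at once the adjusted threshold is easier to pass. Mettl14, at -1.17 in IP, did not pass (adjusted p = 0.157, edgeR), so these shares do not carry over to every gene. The result for some alpha cell markers is not reported here.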

Additional observations from a re-analysis of the deposited data

How the results depend on the processing

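Under the alternatives, 719 values of 66 named results were computed, and 696 kept their direction and their side of the threshold. Of the others, 6 were reversed, all with a replicate left out. No gene-level result in IP, Input or the interaction had passed, so few of those values could leave their side. The named IP over Input results were picked as the highest and lowest called ratios. The 696 is therefore not a measure of robustness. In IP, DESeq2 called 0 of the 103 trafficking sites to which it gave an adjusted p. Leaving out each replicate in turn gave 0 to 15 sites and 0 to 4 genes. In every such fit a group is left with 1 library that is assumed to vary like the other. Why the number called changed with the replicate left out was not tested. Among the listed exocytosis and exocyst genes, some IP log2 fold changes near 0 changed sign when a replicate was left out. These were Exoc3 (-0.02 to 0.17), Exoc6b (-0.21 to 0.06), Stx4a (-0.12 to 0.27), Syt11 (-0.09 to 0.04) and Syt4 (-0.09 to 0.20). Other members changed sign too, some over a wider range, such as Vps13b (-0.22 to 0.74), Trappc6b (-0.41 to 0.17), Sec14l1 (-0.44 to 0.09) and Snx6 (-0.03 to 0.37). Column totals gave 61 genes higher and 17 lower and 330 sites higher and 60 lower in IP over Input in M14KD. In SCR the numbers were 58 and 16 genes and 332 and 61 sites. Over all sites, 77.6% of the calls in M14KD and 77.9% in SCR were higher with column totals. With the replicate number as a block, 83 genes were called for IP over Input in M14KD and 82 in SCR, against 75 and 79 without it, and the interaction had 0 genes and 0 sites, so the block changed no count of calls by over 1.5 times. Leaving out 1 replicate also changed the number of genes called for IP over Input. The share of all genes called is not given here for the block or for those fits. The depth of the Input libraries limits the Input and interaction comparisons, and genes of a few CPM such as Stx4a and Rab11fip1 cannot show a moderate change. A loss equal at all sites cannot be seen with any of these scalings.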
